A study of Mus musculus with 15 samples.

Results

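The genes described are Txnip, the long noncoding gene Gm15441 on the strand opposite it, the 4 other expressed members of the alpha-arrestin family (Arrdc1, Arrdc2, Arrdc3 and Arrdc4), the thioredoxins Txn1 and Txn2, the thioredoxin reductase gene Txnrd1 and the neuronal glucose transporter gene Slc2a3. They are 10 of the 43629 genes counted. Txnip was chosen on these data, because its diet difference in young mice had the smallest p of all genes tested, and Gm15441 because its interaction of age and diet did. The values of Txnip and Gm15441 are therefore given as a description without a test. The 8 relatives were chosen by family or function, with earlier results of these data known, those for Txnip and Gm15441 among them. All 10 genes passed the filter on low counts.

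Txnip protein binds reduced thioredoxin and blocks it, and as an alpha-arrestin it also brings glucose transporters into the cell from the surface. Its gene is known for its strong response to glucose, which acts through carbohydrate response elements in the promoter, and it also responds to glucocorticoids and to FoxO factors. Alpha-arrestins are adaptors that carry membrane proteins to ubiquitin ligases of the Nedd4 family. In brain, Txnip is studied as a link between fuel supply, redox state and inflammation.

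Whole-brain RNA came from 15 male wildtype C57BL/6J mice, 1 library per mouse. Control mice were fed ad libitum (AL), with food always present, and the others every other day (EOD), with 24 h of food alternating with 24 h without, starting at 2 months of age. The groups were 4 AL and 3 EOD mice aged 3 months, called young and about 1 month on the diet, and 4 AL and 4 EOD mice aged 24 months, called old, whose EOD mice had been on the diet for most of their lives. Old and young EOD mice therefore differed both in age and in time on the diet. Where EOD mice of both ages are compared, the 2 cannot be told apart. Measurements in the study began in the morning after a day with food unless stated otherwise, and no separate time is given for the brains. Each mouse had between 5198748 and 13610729 reads counted on genes. Levels are given as CPM, the read count of a gene per 1000000 reads of its library, with the library size adjusted by TMM, a normalization against the bulk of genes. The third young AL mouse stood apart, with the largest total but 17280 genes detected against 19054 to 20880 in the other mice, and results that rest on it are given with and without it. Markers of neurons, astrocytes, oligodendrocytes and microglia were all detected in every group, as the label whole brain implies. In a whole brain, fewer cells of a type and less RNA per cell cannot be told apart. No summed marker level among the 11 cell type lists separated young EOD from young AL mice. Between old and young EOD mice the sums of microglia, ependyma and blood markers were higher without overlap and those of mural cells lower (microglia 204.3 to 235.7 CPM against 188.6 to 195.6). Their part in the results was not tested.

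Txnip has 7 exon blocks at chr3:96557957-96561883 on the plus strand (GRCm38), and Gm15441 has 4 at chr3:96555765-96566801 on the minus strand, so that the whole of Txnip lies within the span of Gm15441. The exons of both genes share 606 bases, which is 19.99% of the exonic length of Txnip and 36.2% of that of Gm15441. Of these, 441 bases lie in the first exon block of Txnip and 165 in the fifth. Reads were counted by strand, so that a read from the shared bases went to the gene on its own strand. Txnip received 200 to 401 reads per mouse and Gm15441 39 to 106. An exon block of Gm15441, chr3:96559678-96559842 on the minus strand, is shown because it lies wholly opposite coding sequence of Txnip, and its reverse complement was found in a Txnip transcript of GENCODE.
Gm15441 exon block opposite Txnip: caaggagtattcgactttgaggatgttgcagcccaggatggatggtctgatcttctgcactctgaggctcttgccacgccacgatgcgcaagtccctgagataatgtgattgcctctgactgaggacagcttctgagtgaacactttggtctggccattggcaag

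**Figure D1:**
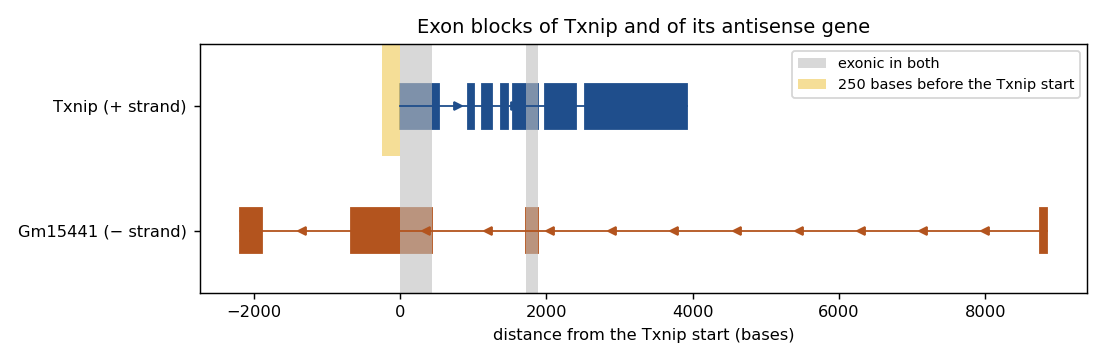
Exon blocks (boxes) of Txnip and Gm15441 against the distance in bases from the Txnip start, with arrows for the direction of transcription. Gray bands mark the 606 bases exonic in both genes, and the yellow band the 250 bases before the Txnip start, which lie inside the second exon block of Gm15441.

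The second exon block of Gm15441 runs from 671 bases before to 440 bases after the Txnip start. It therefore holds all of the 250 bases before that start, so that these letters are promoter for one gene and exon for the other. RefSeq promoters (GRCm38.p6) were matched for 8 of the 10 genes, and the 250 bases before the start are shown for Txnip (chr3:96557707-96557956, plus strand), for Arrdc3 (chr13:80883134-80883383, plus strand) and Arrdc2 (chr8:70839721-70839970, minus strand), the other alpha-arrestins whose levels correlated most with that of Txnip, and for Arrdc4 (chr7:68749239-68749488, minus strand), a close relative whose correlation with Txnip moved with the third young AL mouse. Capitals mark the letters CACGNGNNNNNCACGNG (the paired form of the carbohydrate response element), CACGTG (an E-box), GTAAACA (the core bound by FoxO factors), CCAAT and TATAAA, each searched on both strands. These motifs were picked with the Txnip sequence in view.
Txnip: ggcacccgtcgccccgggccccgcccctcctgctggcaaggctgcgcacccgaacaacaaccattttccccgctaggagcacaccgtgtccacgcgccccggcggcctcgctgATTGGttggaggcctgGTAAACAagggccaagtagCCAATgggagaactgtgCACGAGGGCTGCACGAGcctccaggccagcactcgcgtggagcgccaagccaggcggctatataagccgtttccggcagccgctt
Arrdc3: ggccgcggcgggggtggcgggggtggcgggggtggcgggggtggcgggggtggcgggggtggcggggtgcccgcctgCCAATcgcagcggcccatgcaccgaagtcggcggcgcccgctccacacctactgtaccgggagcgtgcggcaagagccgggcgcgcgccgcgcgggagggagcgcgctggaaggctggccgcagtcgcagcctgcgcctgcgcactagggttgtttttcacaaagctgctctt
Arrdc2: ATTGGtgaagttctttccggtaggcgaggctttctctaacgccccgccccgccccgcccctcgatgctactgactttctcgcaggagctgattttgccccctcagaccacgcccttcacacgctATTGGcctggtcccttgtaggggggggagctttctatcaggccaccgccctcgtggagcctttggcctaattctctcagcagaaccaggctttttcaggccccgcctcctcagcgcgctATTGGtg
Arrdc4: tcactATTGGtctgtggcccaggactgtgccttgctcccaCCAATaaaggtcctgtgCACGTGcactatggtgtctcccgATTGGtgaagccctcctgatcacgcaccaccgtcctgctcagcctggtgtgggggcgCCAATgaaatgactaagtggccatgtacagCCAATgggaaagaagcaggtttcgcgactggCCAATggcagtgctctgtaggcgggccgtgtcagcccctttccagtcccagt

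The paired carbohydrate response element stood 85 to 69 bases before the Txnip start, and among all 32817 promoter windows of this length 0.0457% held it. The FoxO core stood 121 to 115 bases before the Txnip start, against 3.16% of all windows with this motif. Txnip also held CCAAT in both orientations, as letters present in 33.8% of windows. Arrdc4 held an E-box 193 to 188 bases before its start (6.02% of windows) and 6 CCAAT letters, Arrdc2 held 3 and Arrdc3 1. The remaining matches were a TATAAA 160 to 155 bases before the Txn1 start (12.4% of windows) and a CCAAT in Txn2 and in Txnrd1. The window of Arrdc1 held no match. The search took exact letters only, so that the similar tatataa in the Txnip window was not counted. The motifs were picked with the Txnip sequence in view, and nothing is read from their shares for Txnip. Looser forms of the carbohydrate response element were not searched, so that a window without a match may still hold one. These are matches of letters and say nothing of binding in these brains.

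Per exonic length (RPKM, the CPM divided by the exonic length in kilobases), Txn1 had the highest level, with a mean of 48.2 ± 4.82 RPKM (SD, n = 15 mice). Slc2a3 (26.5 ± 1.86), Txn2 (21.5 ± 1.44) and Txnrd1 (19.8 ± 2.44) followed, and the ranges of Slc2a3 and Txn2 and of Txn2 and Txnrd1 overlapped. Arrdc3 (12.1 ± 1.77) and Txnip (11.3 ± 2.21) stood next to each other with overlapping ranges. Gm15441 reached 5.06 ± 1.48 RPKM, Arrdc2 4.02 ± 1.05, Arrdc4 1.83 ± 0.304 and Arrdc1 1.72 ± 0.341, where Gm15441 overlapped with Arrdc2 and Arrdc4 with Arrdc1. Arrdc5, the remaining alpha-arrestin gene, had no read in any mouse. The genome holds a processed copy of Txn1, so that part of the Txn1 reads may belong to the copy or may have been dropped by the mapping quality filter.

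Txnip was highest in young EOD brains. Its levels were 24.3, 29.5, 27.4 and 32.1 CPM in the young AL mice and 39.4, 47.3 and 46.7 CPM in the young EOD mice. The old AL mice had 36.1, 32.5, 37.8 and 30.0 CPM and the old EOD mice 30.7, 27.3, 36.9 and 34.4 CPM. Every young EOD mouse lay above every other mouse of the study, and the other groups overlapped with each other. The group means were 28.3 ± 3.30 CPM in young AL (SD, n = 4), 44.5 ± 4.37 in young EOD (n = 3), 34.1 ± 3.51 in old AL (n = 4) and 32.3 ± 4.22 in old EOD mice (n = 4). In this order from young EOD down to old AL, old EOD and young AL, the neighbors after the first did not differ beyond their spread.

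Between young EOD and young AL mice Txnip differed by 0.64 on the log2 scale (SE 0.122), a 1.56-fold higher level in EOD mice. Without the third young AL mouse the difference was 0.62. Within sequencing lanes, as named in the file headers, it was 0.55 in lane 1 (1 EOD and 2 AL mice) and 0.78 in lane 2 (2 EOD mice and the third AL mouse), and lane 3 held no young EOD mouse. In old mice the diet difference of Txnip was -0.07 (SE 0.114, 95% interval -0.31 to 0.17), with -0.23, -0.36 and 0.25 in lanes 1 to 3. The difference of the 2 diet differences was -0.71 (SE 0.167). With age Txnip was 0.26 higher in AL mice (SE 0.115), and in EOD mice it was lower, at -0.45 (SE 0.121). These comparisons share groups, since the young EOD mice enter both the diet difference in young mice and the age difference in EOD mice. The fourth old AL mouse had a summed level of 4 pituitary hormone genes of 1017 CPM, against at most 17.0 CPM in the other mice, and without it the diet difference of Txnip in old mice was -0.13.

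Gm15441 followed the same order of groups as Txnip at a lower level. The young AL mice had 5.06, 6.87, 4.84 and 7.36 CPM and the young EOD mice 10.3, 13.1 and 11.7 CPM. The old AL mice had 9.58, 11.8, 7.38 and 8.49 CPM and the old EOD mice 6.20, 6.83, 9.76 and 8.08 CPM. All young EOD mice lay above all young AL and all old EOD mice, and 1 old AL mouse, at 11.8 CPM, lay among them. All old AL mice lay above all young AL mice, if only just, with 7.38 against 7.36 CPM. The log2 difference between young EOD and young AL mice was 0.94 (SE 0.205), or 1.92-fold, and 0.83 without the third young AL mouse. In old mice it was -0.28 (SE 0.190), and the difference between the ages was -1.21 (SE 0.279). Gm15441 was chosen on this last difference, which the old mice enter, so that these values are a description only. Within lanes the difference in young mice was 0.78 and 1.32, and in old mice -0.61, -0.44 and 0.06. Gm15441 was 0.63 higher in old than in young AL mice (SE 0.193), and between old and young EOD mice the difference was -0.59 (SE 0.202).

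The mean share of antisense to sense reads was lowest in young AL mice. Reads of Gm15441 came to 21.2% ± 2.57 of the reads of Txnip in young AL (SD, n = 4), 26.3% ± 1.30 in young EOD (n = 3), 27.7% ± 6.90 in old AL (n = 4) and 23.8% ± 2.66 in old EOD mice (n = 4). The 3 young EOD mice, at 25.1% to 27.6%, lay above the 4 young AL mice, at 17.7% to 23.3%. The lowest value was that of the third young AL mouse, and the other young AL mice had 20.8% to 23.3%. Young AL mice overlapped with old EOD mice, at 20.2% to 26.4%. Both genes were chosen on these groups, and nothing is read from the separation of the young groups. The old AL mice spanned the widest range, 19.5% to 36.3%, and overlapped with every other group.

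**Figure D2:**
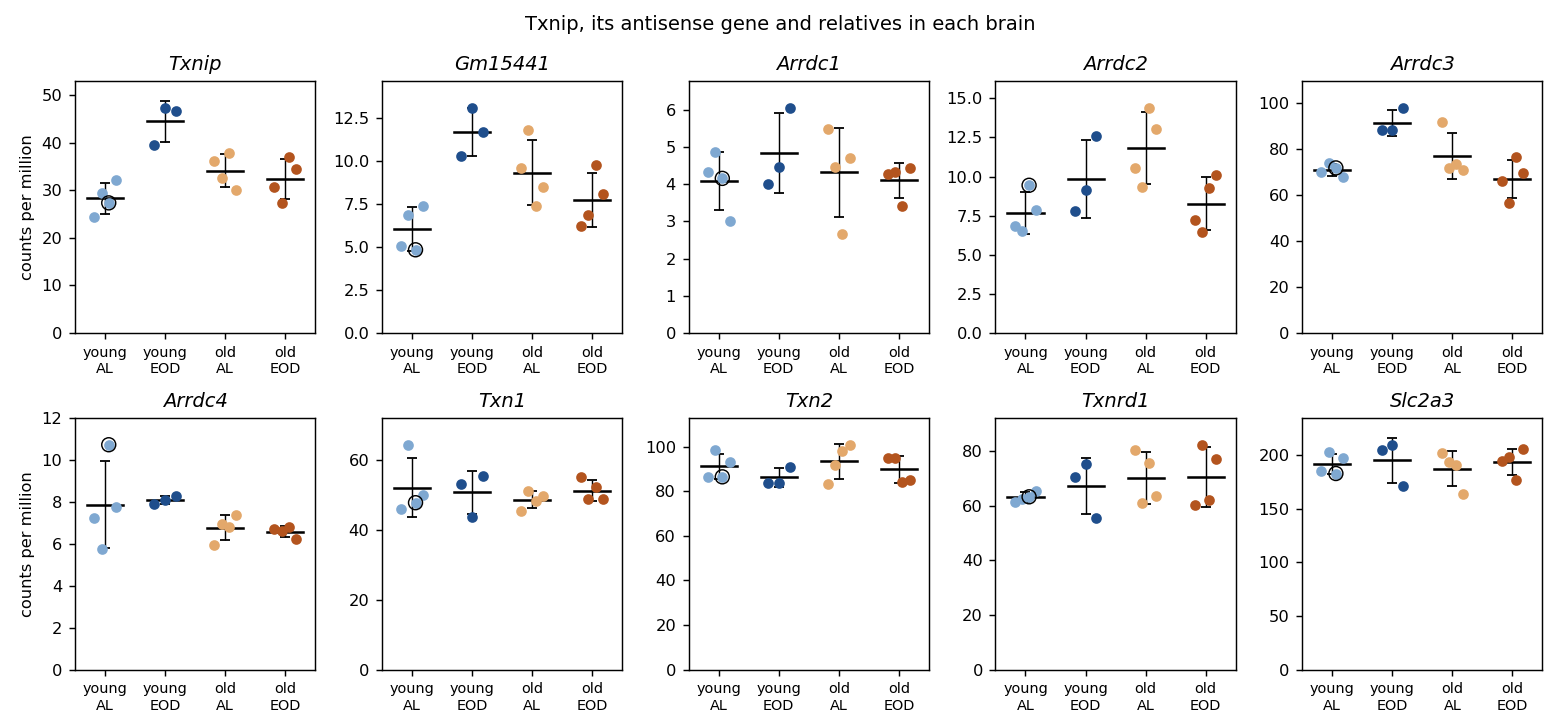
Level of each of the 10 genes in CPM (vertical axis, from 0) in each of the 15 brains (points), by group, with the group mean (bar) and SD (whiskers). The third young AL mouse is circled, and in Txnip, Gm15441 and Arrdc3 the 3 young EOD mice stand above the young AL and old EOD mice.

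Among the alpha-arrestin relatives, Arrdc3, known for its part in the turnover of adrenergic receptors and in body weight, came nearest to Txnip. Arrdc3 had 70.1, 73.9, 71.8 and 67.6 CPM in young AL mice and 88.1, 88.2 and 97.8 CPM in young EOD mice. The old AL mice had 91.6, 71.8, 73.6 and 70.8 CPM and the old EOD mice 65.9, 56.4, 76.3 and 69.5 CPM. The young EOD mice lay above all young AL and old EOD mice, and the first old AL mouse, at 91.6 CPM, lay among them.
Arrdc3 was 0.37 higher on the log2 scale in young EOD than in young AL mice (SE 0.102, 95% interval 0.15 to 0.58), which missed the threshold of a false discovery rate (FDR) of 0.1 over all genes tested (edgeR quasi-likelihood test, FDR 0.996, unadjusted p = 0.00172). In old mice the difference was -0.20 (SE 0.0955, FDR 0.9999), and -0.10 without the first old AL mouse. The difference between the ages was -0.56 (SE 0.140, FDR 0.9998). Age in AL mice gave 0.12 (SE 0.0952, FDR 0.739), and 0.02 without that mouse. In old EOD mice Arrdc3 was 0.45 lower than in young EOD mice (SE 0.102, 95% interval of the difference -0.66 to -0.23, edgeR FDR 0.0971). Arrdc3 was the only member that passed the threshold in any comparison. Age and time on the diet cannot be told apart in this difference. The call was lost in 13 of 23 alternative analyses, with FDRs from 0.00572 to 0.429 and a negative difference in all 23. The 13 included sequencing lane as a term (FDR 0.187) and the replicate block (FDR 0.227). Leaving out any 1 of the 3 young EOD mice also ended the call (FDR 0.237 to 0.429). Within lanes the difference was -0.42 in lane 1 (1 old and 1 young EOD mouse) and -0.72 in lane 2 (1 old and 2 young). Lane 3 held no young EOD mouse. Its 2 old EOD mice, at 76.3 and 69.5 CPM, were the highest of their group and enter neither value.

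Arrdc2, a less studied adaptor of the same family, was lowest in young AL and highest in old AL mice. It had 6.87, 6.51, 9.44 and 7.87 CPM in young AL mice and 7.80, 9.11 and 12.6 CPM in young EOD mice. The old AL mice had 10.6, 9.32, 14.4 and 13.0 CPM and the old EOD mice 7.20, 6.49, 9.30 and 10.1 CPM. Each pair of groups overlapped, but young AL and old AL mice did so only through the third young AL mouse. Without it the young AL mice had 6.51 to 7.87 CPM, with a mean of 7.08 against 7.67 CPM with it. Arrdc2 was 0.61 higher in old than in young AL mice (SE 0.192, edgeR FDR 0.219), and 0.73 without the third young AL mouse, its highest young AL value. The replicate block, whose numbers did not pair the mice, brought this to an FDR of 0.0584, and keeping every gene with a read to 0.0724. Its diet difference was -0.51 in old mice (SE 0.192, edgeR FDR 0.9999) against 0.35 in young mice (SE 0.211, FDR 0.996), and the latter was 0.12 without the third young EOD mouse. The difference between the ages was -0.85 (SE 0.285, FDR 0.9998).

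Arrdc4, the alpha-arrestin most like Txnip in its known response to glucose, had similar means in young AL and young EOD mice. It had 7.23, 5.77, 10.7 and 7.78 CPM in young AL, 7.91, 8.08 and 8.28 CPM in young EOD, 5.97, 6.96, 6.81 and 7.40 CPM in old AL and 6.70, 6.60, 6.81 and 6.25 CPM in old EOD mice. The highest value belonged to the third young AL mouse, and without it the diet difference in young mice went from 0.03 to 0.22 and the age difference in AL mice from -0.22 to -0.02. All old EOD mice lay below all young EOD mice, with a difference of -0.29 (SE 0.191) that missed the threshold (edgeR FDR 0.975).
Arrdc1, which takes part in the budding of vesicles from the cell surface, was the least expressed, with 14 to 56 reads and 2.65 to 6.05 CPM per mouse. Its group means were 4.09 ± 0.778 CPM in young AL, 4.84 ± 1.07 in young EOD, 4.32 ± 1.20 in old AL and 4.11 ± 0.471 in old EOD mice, and all groups overlapped. At this depth the 95% interval of its diet difference in young mice ran from -0.28 to 0.77.

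The thioredoxin genes and Slc2a3 showed no detectable difference. Txn1, the cytosolic thioredoxin that Txnip binds, had group means of 52.0 ± 8.35 CPM in young AL, 50.7 ± 6.21 in young EOD, 48.6 ± 2.49 in old AL and 51.2 ± 3.08 in old EOD mice. Txn2, the mitochondrial thioredoxin, had 91.1 ± 5.75, 86.2 ± 4.12, 93.3 ± 7.83 and 89.7 ± 5.99 CPM in the same order. Both genes overlapped between all groups, and their single highest values, 64.3 CPM for Txn1 and 100.8 CPM for Txn2, came from AL mice. Txnrd1, the cytosolic reductase that recharges thioredoxin, had 63.1 ± 1.75, 67.1 ± 10.2, 70.1 ± 9.36 and 70.5 ± 10.9 CPM. Its 4 young AL mice kept within 61.5 to 65.5 CPM while the other groups ranged from 55.6 to 82.3 CPM. Slc2a3, the transporter through which neurons take up glucose, had 191.9 ± 9.48, 195.1 ± 21.2, 187.4 ± 16.4 and 193.9 ± 12.2 CPM.
Over the 16 diet and age differences of these 4 genes, the log2 fold change lay between -0.10 and 0.15. The 95% intervals reached from -0.32 to 0.38, and the smallest unadjusted p was 0.208 (edgeR, smallest FDR 0.725).

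**Figure D3:**
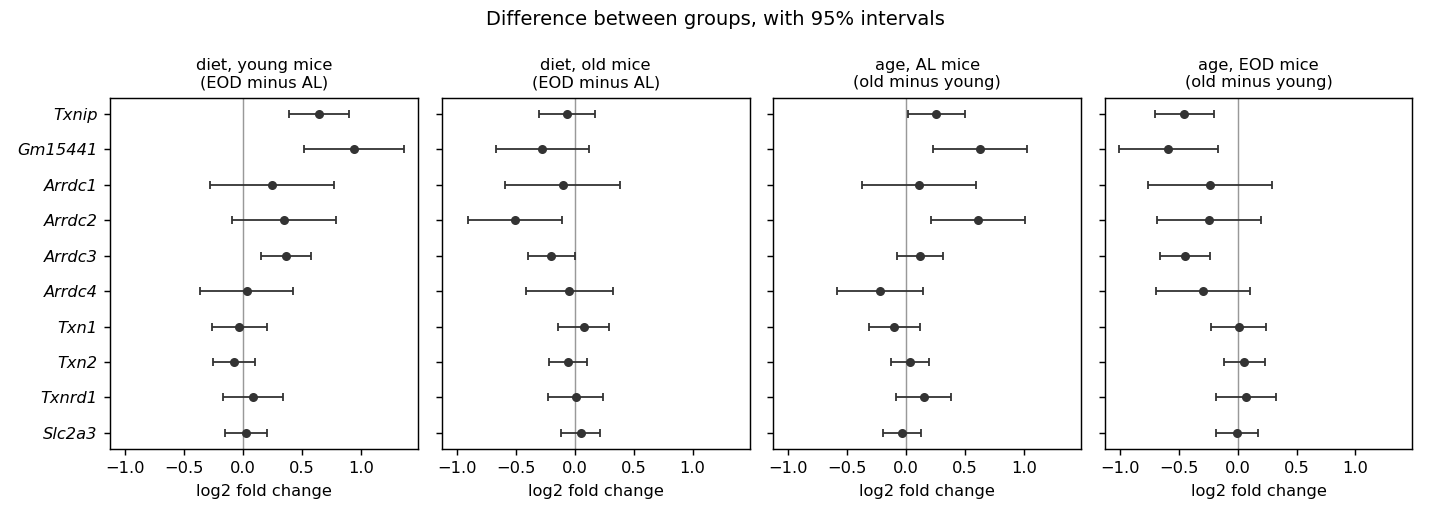
Log2 fold change (horizontal axis) of each gene in the diet and age differences, with 95% intervals. Txnip and Gm15441 were chosen on these data, and their intervals are a description and no test. Txnip, Gm15441 and Arrdc3 lie to the right in young mice on the diet and to the left with age in EOD mice, while Txn1, Txn2, Txnrd1 and Slc2a3 lie between -0.10 and 0.15 in every panel.

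Set against all genes, the calls were few. At an FDR of 0.1 edgeR called 0% of the 15864 genes tested for diet in young mice, 0% for diet in old mice, 0% for diet averaged over ages and 0% for the interaction, and no member. The counts at an unadjusted p under 0.05 were 657 genes (4.14%), 409 (2.58%), 715 (4.51%) and 362 (2.28%). DESeq2 called 1 gene at an FDR of 0.1 for diet in young mice, which was Txnip, the gene chosen on that comparison and so no support for it, and 0 in the other 3, and limma voom called 2 for diet in old mice and 0 in the other 3. With age, 173 genes (1.09%) passed in AL mice, 46 (0.29%) in EOD mice and 365 (2.3%) on average, against 1511 (9.52%), 911 (5.74%) and 1856 (11.7%) at an unadjusted p under 0.05. Of the 8 relatives, Arrdc3 was the 1 called in EOD mice, and none was called in AL mice or on average.
At an unadjusted p under 0.05 stood 1 of the 8 relatives for diet in young mice (Arrdc3), 1 for diet in old mice (Arrdc2), 0 for diet on average, 1 for age in AL mice (Arrdc2), 1 for age in EOD mice and 1 for age on average (both Arrdc3), and 2 for the interaction (Arrdc2 and Arrdc3). All genes whose young EOD mice lay above the young AL mice without overlap made up 2.4% of those tested, and 3 of the 10 members did so (Txnip, Gm15441 and Arrdc3). Old AL mice lay above young AL mice without overlap in 2.98% of genes and in Gm15441. Old EOD mice lay below young EOD mice in 4.29% of genes and in 4 members (Txnip, Gm15441, Arrdc3 and Arrdc4). Txnip and Gm15441 were chosen on these groups, and nothing is read from their part in the counts. The median log2 fold change of the 8 relatives was 0.06 for diet in young and -0.05 in old mice, and 0.07 for age in AL and -0.12 in EOD mice, beside medians over all genes between -0.01 and 0.00.

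The genes most like Txnip across the 15 mice, by the correlation of log2 CPM among the 13984 genes whose mean log2 CPM was 1 or more, were Gm15441 (r = 0.83), Cep89 (0.81), Mia3 (0.81), 1700037C18Rik (0.80) and P2ry1 (0.79). Without the third young AL mouse 3 of these 5 remained, and 1700037C18Rik (0.92) came first. Of the other members, Arrdc3 reached 0.77 and Arrdc2 0.50, and Txn1 (-0.05), Txn2 (-0.32), Txnrd1 (0.11), Slc2a3 (0.11), Arrdc4 (0.09) and Arrdc1 (0.08) lay near or below 0. Without the third young AL mouse the correlation of Arrdc4 with Txnip was 0.45, beside 0.54 for Arrdc2 and 0.78 for Arrdc3. The genes most like Gm15441 were Mia3 (0.85), Bud13 (0.84), Txnip (0.83), Slc35e3 (0.83) and Cadm1 (0.81). All points share the group differences for which Txnip and Gm15441 were chosen. After the group means had been removed, the correlation of Txnip was 0.54 with Gm15441, 0.57 with Arrdc3 and 0.50 with Arrdc2, while that of Gm15441 was 0.29 with Arrdc3 and -0.10 with Arrdc2.

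**Figure D4:**
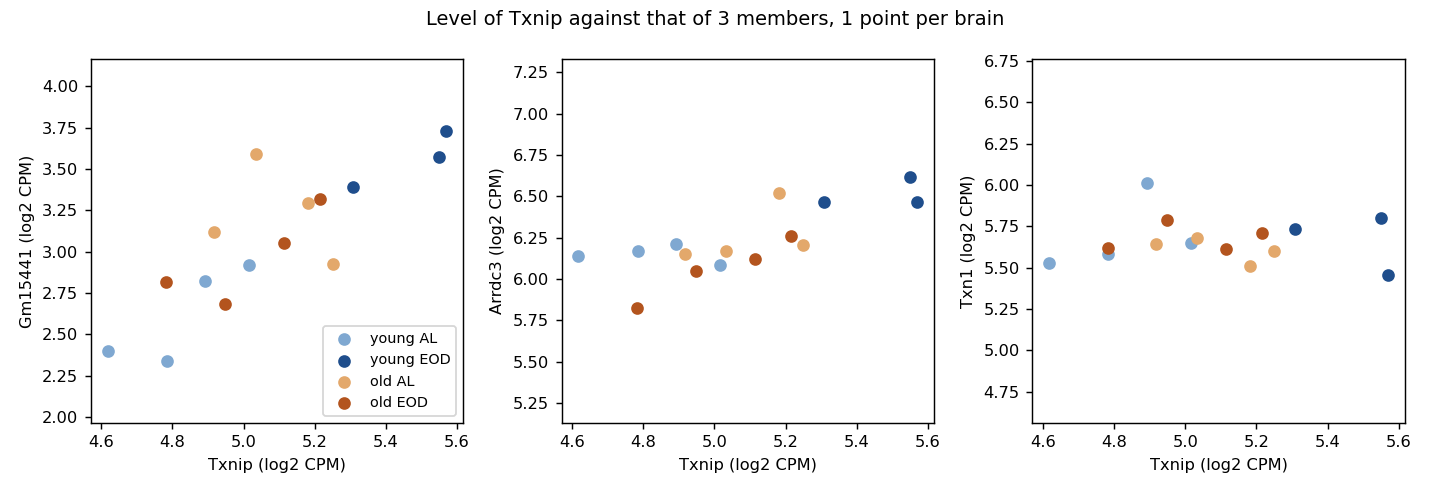
Log2 CPM of Gm15441, Arrdc3 and Txn1 (vertical axes, each spanning the same range) against that of Txnip, 1 point per brain, colored by group. The correlation over 15 mice was 0.83, 0.77 and -0.05.

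Few partners of these genes passed the test. Of 9 alpha-arrestin and arrestin genes tested, Arrdc3 was the 1 called, in EOD mice. Of 25 thioredoxin-system genes tested, 0 passed an FDR of 0.1 in any comparison, and the genes with the smallest p over the diet and age averages were Msrb1, a methionine sulfoxide reductase (0.28 with age, edgeR FDR 0.259), and Txnrd2, the mitochondrial reductase (-0.26 with diet, edgeR FDR 0.983). Of 20 genes for glucose sensing and uptake, 0 passed, with Klf10 (-0.32 with age, edgeR FDR 0.194) and Slc2a1, the glucose transporter of the blood-brain barrier (0.20 with age, edgeR FDR 0.277), at the smallest p. Of 13 ubiquitin ligases and vesicle-sorting partners of alpha-arrestins, Hecw1, a neuronal Nedd4-type ligase, fell with age by 0.24 (SE 0.0644, edgeR FDR 0.0633). Of 6 inflammasome genes tested, the adaptor Pycard and the protease Casp1 rose with age averaged over diets, by 1.07 (SE 0.287, edgeR FDR 0.0699) and 0.88 (SE 0.236, edgeR FDR 0.0692), at levels of 0.513 to 3.22 and 1.57 to 6.78 CPM. Both are expressed in microglia, whose summed markers were also higher in old than in young AL mice (213.0 to 224.7 against 192.1 to 202.6 CPM), and the part of microglial RNA in this result was not tested.

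Of 18 genes known to respond to fasting, FoxO factors or glucocorticoids, 0 passed an FDR of 0.1 in any comparison (edgeR). At an unadjusted p under 0.05, 6 were higher in young EOD mice (Sgk1, Zbtb16, Tsc22d3, Ddit4, Hif3a and Pdk4, named after their values were seen) and 0 lower. In old EOD mice 6 were lower (Plin4, Angptl4, Hif3a, Sult1a1, Cdkn1a and Foxo3, also named after their values were seen) and 0 higher, and Hif3a was the 1 gene counted at both ages. Over all genes tested, 4.14% and 2.58% stood under this p in either direction. The median log2 fold change of the list was 0.24 in young and -0.21 in old mice. Its 2 genes with the smallest p over the diet and age averages were Klf9 (-0.18 with age, edgeR FDR 0.205) and Sult1a1 (-0.44 with diet, edgeR FDR 0.983). A higher mean in young and a lower one in old EOD mice was seen in 12 of the 18 genes (66.7%) and in 21.7% of all genes tested. Arrdc1, Arrdc2, Arrdc3 and Arrdc4 had the same signs, with Arrdc4 near 0 at both ages (0.03 and -0.04). Arrdc1 lay within its SE of 0 at both ages (0.24, SE 0.252, and -0.10, SE 0.234). The lists were chosen with earlier results of these data known.

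**Figure D5:**
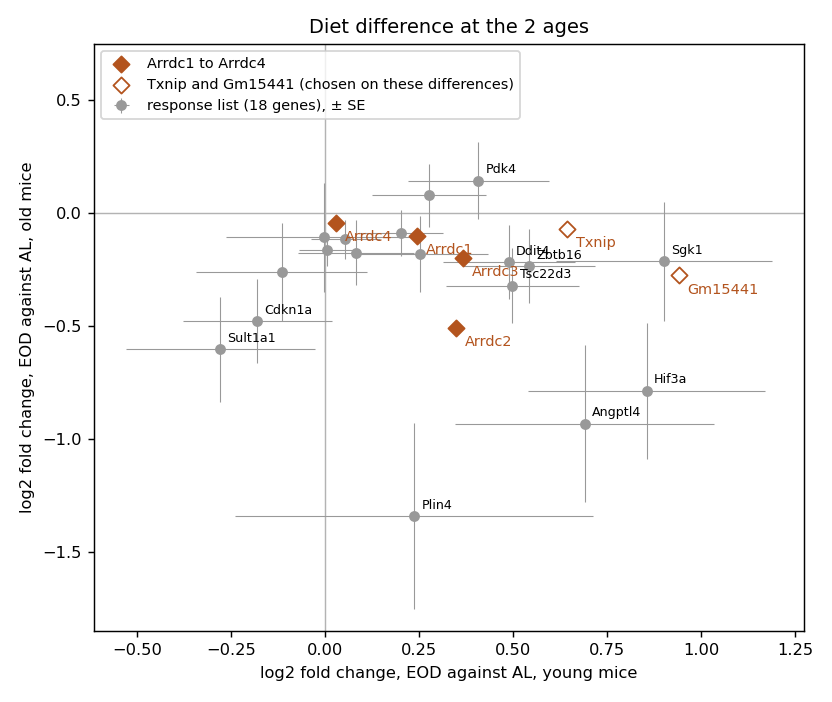
Log2 fold change of EOD against AL in old mice (vertical axis) against that in young mice (horizontal axis) for the 18 response genes (gray, with SE), for Arrdc1 to Arrdc4 (filled diamonds) and for Txnip and Gm15441 (open diamonds), which were chosen on these differences. The lower right quadrant, higher in young and lower in old EOD mice, holds 12 of the 18 genes.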

How the data were processed

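Whole-brain RNA of 15 mice had been sequenced as 50-base single reads. The authors aligned the reads to GRCm38 with STAR and assigned primary alignments of mapping quality 5 or more by strand to genes of Ensembl release 79 (featureCounts 1.5.0-p1), and they deposited raw counts per gene. Groups were taken from the labels. The main test was that of edgeR 4.0.16 under R 4.3.3 (filterByExpr, 15864 genes, TMM, quasi-likelihood test, 1 fit of the 4 group means, Benjamini-Hochberg adjustment over all genes tested, FDR under 0.1). Standard errors were derived from the F statistics. RPKM used the exonic lengths in the files. For correlations, 2 was the prior count of log2 CPM. DESeq2 1.42.0, limma 3.58.1, filters, size factors, a lane term, a replicate block and leaving out each mouse were alternatives. The main fit was tested on simulated counts, with a diet change in young mice given to 50 genes per fold. It recovered 46% of changes of 1.5-fold, 66% of 2-fold, 84% of 3-fold and 88% of 4-fold, with 14 false calls. All these genes were changed at once, which makes the adjusted threshold easier to pass than when few genes change. With 0 genes called for diet in young mice, these rates do not give what that comparison could detect. The members and lists were chosen with earlier results of these data known. Genes named from lists were those past the FDR and, where a list had none, the 2 with the smallest p over the diet and age averages. No pair of the 21 pairs of replicate mice was a duplicate.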

Additional observations from a re-analysis of the deposited data

Results flagged for a closer look

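In 2 of the 30 sets of 4 mice (10 genes in 3 groups), 1 mouse lay far from the other 3, with a gap to the nearest that took up more than the 95% limit of Dixon's test for 4 values (0.829) of the whole range. Chance alone marks about 1 in 20 such sets. The first old AL mouse had 91.6 CPM of Arrdc3 against 70.8 to 73.6 CPM in the other old AL mice (0.865 of the range). The third old EOD mouse had 3.41 CPM of Arrdc1, from 37 reads, against 4.27 to 4.43 CPM in the other old EOD mice (0.850 of the range).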

How the results depend on the processing

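The age difference of Arrdc3 in EOD mice kept its sign in all 23 alternatives, and the diet difference of Txnip in old mice in 22 of 23. Keeping every gene with at least 1 count raised the number of genes tested to 26269. For diet this called 26 genes and 2 members (Txnip and Gm15441) in young mice, 27 genes in old mice and 65 on average. Age in AL mice gave 444 genes and 2 members (Gm15441 and Arrdc2). Age in EOD mice gave 100 genes and 2 members (Txnip and Arrdc3), and age on average 653 genes. The interaction gave 26 genes and 3 members (Txnip, Gm15441 and Arrdc3). DESeq2 called 1 gene and 1 member for diet in young mice and 72 genes for age in EOD mice. limma voom called 2 genes for diet in old mice and 125 genes and 2 members (Txnip and Arrdc3) for age in EOD mice. With lane as a term 2 genes were called for diet in old mice, 237 for age on average and 0 members for age in EOD mice. Fitting the 2 groups alone gave 86 genes for age in AL mice, and an FDR of 0.05 gave 229 genes for age on average and 0 members in EOD mice. Leaving out 1 mouse at a time gave 102 to 221 genes for age in AL mice, 19 to 76 genes and 0 to 1 members in EOD mice and 216 to 425 genes on average. Txnip and Gm15441 were chosen on the diet difference in young mice and the interaction, so that their part in the members called is no support for them. The cause of these shifts was not tested.

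Mice with the same number did not deviate together (r from -0.113 to 0.113 over 21 pairs), so that the replicate block, which called 1 member for age in AL mice (Arrdc2) and 0 in EOD mice, pairs mice that share only a number. The low counts of Arrdc1, Arrdc4 and Gm15441 limit what could be detected. When levels were ranked without dividing by length, 4 of the 10 genes kept their rank.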

Other observations

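Among the 45 pairs of the 10 genes, the highest correlation of log2 CPM after removal of the group means was that of Txnrd1 with Slc2a3 (r = 0.68, and 0.60 with the group differences kept, n = 15 mice). The pair was picked after its value was seen. Txn1 correlated with Txn2 (r = 0.58 within groups) and ran against Txnrd1 (r = -0.54). The points share the library of each mouse, and the correlations are given as a description.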
